A study of Mus musculus with 16 samples.

Results

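The genes described here carry pyruvate into the mitochondrion, run the tricarboxylic acid (TCA) cycle, move reducing equivalents through the malate-aspartate shuttle, and handle citrate and malate outside the cycle. They were listed by symbol, and all 33 symbols were found among the 55471 genes of the count table. All 33 passed the filter on low counts, which kept 14331 genes. RNA was sequenced from skeletal muscle of 16 male mice fed a high-fat diet (HFD, 60% of kcal from lipids) for 12 weeks, starting at 12 weeks of age. Of these mice, 10 were labelled heterozygous for Npr1 (Npr1+/-, written het1 to het10) and 6 were labelled wildtype littermates (Npr1+/+, wt1 to wt6), both backcrossed to C57BL/6J. Npr1 encodes the natriuretic peptide receptor GCA, and the allele was carried in the whole body, not in muscle alone. All 16 mice were on HFD, so these libraries hold no lean control, and the labels do not say which muscle was taken. The mice came from 4 cages, each with both genotypes, and weighed 36.5 to 48.1 g in the group labelled Npr1+/- and 40.5 to 54 g in the group labelled Npr1+/+.

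Pyruvate from glycolysis crosses the inner mitochondrial membrane through a carrier made of MPC1 and MPC2. The pyruvate dehydrogenase complex then turns it into acetyl-CoA, or pyruvate carboxylase turns it into oxaloacetate. Citrate synthase joins the 2 products, and the cycle oxidizes citrate back to oxaloacetate while it loads NADH for the respiratory chain. NADH made in the cytosol cannot cross the membrane, so paired cytosolic and mitochondrial forms of malate dehydrogenase and aspartate aminotransferase, with 2 kinds of carrier, pass its electrons inward as malate. Muscle relies on these steps to burn glucose and lactate during work.

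Library totals ranged from 15273472 to 59682677 counts, and levels are given as CPM (counts scaled by TMM to a common library size), or as CPM per kb of gene length where genes are compared with each other. The targeted gene was not lower in the mice labelled Npr1+/-. Npr1 ranged from 9.65 to 22.2 CPM (median 11.8) in those mice and from 10.3 to 13.6 CPM (median 12.6) in the mice labelled Npr1+/+. The log2 fold change was 0.09, with a 95% confidence interval from -0.33 to 0.51. Which exons the mutant allele removes was not used here, so every direction below is between mice as labelled. Skeletal muscle markers were abundant in every library, with Acta1 between 16949 and 43709 CPM Ckm between 17779 and 36076 CPM and Mb between 4112 and 14540 CPM. The fast myosins varied widely between libraries, with Myh4 between 4960 and 58769 CPM and Myh1 between 720 and 11387 CPM. Some libraries stood apart by gene length: the slope of a library's deviation on log2 gene length was 0.32 in het7, 0.24 in het6 and 0.18 in het5, and -0.19 in het9 and -0.18 in het10. The cause of these slopes was not tested, and the genotype count, its median, the estimates of 8 genes and the body weight slopes of 6 genes with all mice are also given without these 5 libraries. For each of 9 lists of cell and fibre markers, the summed levels of the 2 groups overlapped and 0 genes were called for genotype at an adjusted p. Of the 5 erythrocyte markers, all 5 estimates were higher in the mice labelled Npr1+/- and 2 had an unadjusted p under 0.05, and the other 8 lists had 0 such genes. The part of the erythrocyte markers in the genotype estimates below was not tested. The 37 genes of the mitochondrial chromosome summed to 0 counts, so all levels here are of nuclear genes.

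The 250 bases before an annotated start are shown for the 4 genes on which the comparison with body weight turned. Of the 33 genes, Ogdh, Cs and Got1 had the smallest p-values among those with negative slopes on body weight, with all 16 mice. Mpc1 had the smallest among those with positive slopes, and none passed at an adjusted p under 0.05. The stretches are printed 5′ to 3′ on the strand of the gene, and capitals mark a match to the core motif of NRF1, a factor known for driving nuclear genes of mitochondria.
Ogdh: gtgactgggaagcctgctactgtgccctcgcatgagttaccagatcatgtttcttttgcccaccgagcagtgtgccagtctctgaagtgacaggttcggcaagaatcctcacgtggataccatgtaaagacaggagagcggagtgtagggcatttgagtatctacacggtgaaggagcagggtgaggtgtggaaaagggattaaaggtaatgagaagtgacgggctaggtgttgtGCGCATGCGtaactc
Cs: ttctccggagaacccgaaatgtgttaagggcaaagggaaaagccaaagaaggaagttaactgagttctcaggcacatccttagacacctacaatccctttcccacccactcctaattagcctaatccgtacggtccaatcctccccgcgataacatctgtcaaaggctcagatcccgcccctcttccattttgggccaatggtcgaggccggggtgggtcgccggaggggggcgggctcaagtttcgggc
Got1: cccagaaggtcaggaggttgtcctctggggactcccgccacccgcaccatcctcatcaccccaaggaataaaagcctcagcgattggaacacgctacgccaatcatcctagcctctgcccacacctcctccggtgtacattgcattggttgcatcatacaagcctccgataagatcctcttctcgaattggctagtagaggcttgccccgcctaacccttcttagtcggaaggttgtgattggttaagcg
Mpc1: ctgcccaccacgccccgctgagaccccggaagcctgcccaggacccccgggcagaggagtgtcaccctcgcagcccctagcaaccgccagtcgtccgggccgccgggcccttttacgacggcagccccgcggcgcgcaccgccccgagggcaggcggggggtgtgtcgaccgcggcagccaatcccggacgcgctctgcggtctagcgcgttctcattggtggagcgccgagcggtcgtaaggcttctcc
These stretches lie on GRCm38.p6 at chr11:6292308-6292557 (plus strand, Ogdh), chr10:128337477-128337726 (plus strand, Cs), chr19:43524606-43524855 (minus strand, Got1) and chr17:8283537-8283786 (plus strand, Mpc1). The sequences are those of RefSeq. In the count table, on GRCm38, the genes span chr11:6291633-6356642 (Ogdh, ENSMUSG00000020456), chr10:128337734-128362479 (Cs, ENSMUSG00000005683), chr19:43499752-43524605 (Got1, ENSMUSG00000025190) and chr17:8282904-8297657 (Mpc1, ENSMUSG00000023861). GC made up 73.6% of the Mpc1 stretch, with 32 CpG dinucleotides, against 51.6% and 9 for Ogdh, 55.2% and 13 for Cs, and 54.4% and 11 for Got1. RefSeq listed 6 starts for Ogdh and 2 for Mpc1, and the stretches shown for both lie inside the span of the gene in the count table. For Ogdh the first listed start whose stretch held a motif match was chosen, and for the other genes the first listed start. In the 300-base windows, 250 bases before and 50 after a start, 31 of the 33 genes had an entry (40 windows). The NRF1 core GCGCATGCG was found on either strand for 1 of these 31 genes (Ogdh), and in 1.75% of all 32851 windows. The ETS core ACCGGAAGT was found for Dlst alone and in 1.10% of all windows, and the ERR site TCAAGGTCA for 0 of the 31 genes and in 0.423% of all windows. No match of one motif overlapped a match of another. Counts for the 31 genes are per gene, whereas the shares are per window, and a gene can have several windows, so the 2 are not alike. These matches describe letters in a window and were not tested for binding.

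The levels of the genes spanned over 3 orders of magnitude on the scale of CPM per kb of deposited gene length. Malate dehydrogenase stood at the top, with the cytosolic Mdh1 at 430 ± 98.1 CPM per kb (SD, n = 16) and the mitochondrial Mdh2 at 382 ± 43.4 CPM per kb (SD, n = 16). Sucla2, the subunit of the ATP-forming succinyl-CoA ligase, Idh3b and the malate-oxoglutarate carrier Slc25a11 followed at 251 ± 47.2, 244 ± 30.3 and 237 ± 36.7 CPM per kb (SD, n = 16). The lowest levels belonged to the second aspartate-glutamate carrier Slc25a13, at 0.190 ± 0.0714 CPM per kb, the mitochondrial malic enzyme Me2, at 0.542 ± 0.104 CPM per kb, and the citrate carrier Slc25a1 and the dicarboxylate carrier Slc25a10, at 2.22 ± 1.07 and 2.23 ± 0.666 CPM per kb (SD, n = 16 each). When the genes were ordered by mean level, a gene was above the next one in all 16 mice at 5 of the 32 steps, and in 7 to 15 mice at the other steps. The 5 clear steps fell between Dld and Idh2, Mpc2 and Suclg2, Me3 and Aco1, Slc25a1 and Me2, and Me2 and Slc25a13. The middle of the order, from Idh3a at 169 to Suclg1 at 124 CPM per kb, held Got1, Fh1, Cs, Pdhb, Mpc1 and Ogdh and no step that was the same in all 16 mice. The order also depends on the length used. Per kb of the principal transcript of GENCODE M21, Mdh2 came first at 934 CPM per kb, before Mdh1 at 540, Idh3b at 517 and Sucla2 at 450 CPM per kb.

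**Figure D1:**
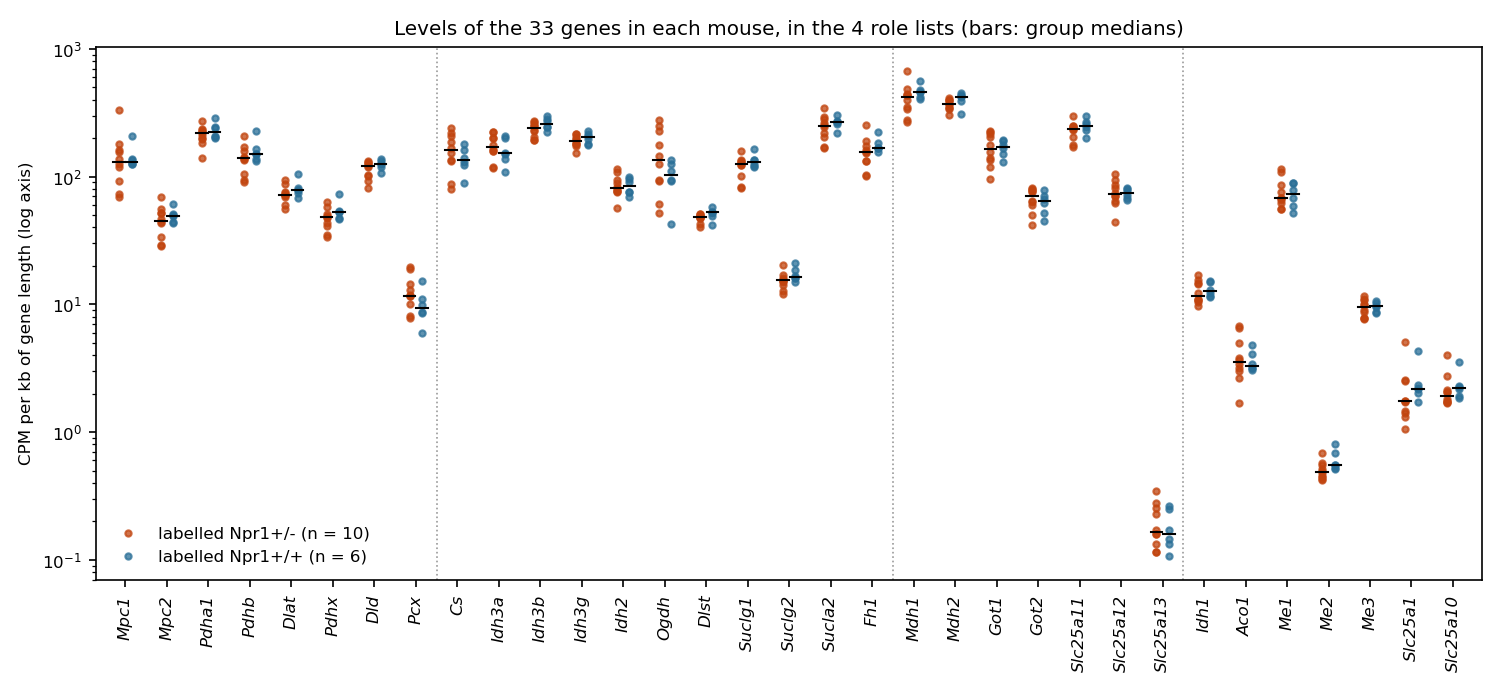
Level of each of the 33 genes in each mouse, in CPM per kb of deposited gene length on a log axis, with mice labelled Npr1+/- in orange and Npr1+/+ in blue and a bar at each group median. Dotted lines part the lists for pyruvate entry, cycle, shuttle, and citrate and malate outside the cycle. Mdh1 and Mdh2 lie highest and Slc25a13 and Me2 lowest, and the ranges of the 2 groups overlap for every gene.

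Within pairs of related genes, 1 partner was often far above the other. Slc25a12, the aspartate-glutamate carrier known as aralar, was 465 times as high as Slc25a13 by the median over 16 mice (range 158 to 755), and it was the higher one in all 16. The ATP-forming Sucla2 was 16.1 times as high as the GTP-forming Suclg2 (range 10.4 to 28.7). Mitochondrial Idh2 exceeded cytosolic Idh1 in all 16 mice, with a median Idh1 to Idh2 ratio of 0.146, whereas cytosolic Got1 exceeded mitochondrial Got2 in all 16 with a median ratio of 2.52. Me3, a mitochondrial malic enzyme, was 17.8 times as high as Me2. For these 5 pairs the higher partner stayed the same in all 16 mice when principal transcript lengths were used. For the other 3 pairs it did not: the median ratio was 1.10 for Mdh1 to Mdh2, 2.80 for Mpc1 to Mpc2 and 1.52 for Pdha1 to Pdhb by deposited lengths, and 0.563, 0.850 and 0.782 by principal transcript lengths. Of the 8 log2 ratios, 0 differed between the genotypes when tested by exact permutation, two-sided, with every one of the 8008 ways to split the mice. The smallest p was 0.172, for Me3 to Me2 (difference 0.23 on the log2 scale, adjusted p = 0.909 over the 8 ratios, n = 10 and 6), and 0.197 when mice were exchanged within cages only.

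The first comparison asked whether muscle of mice labelled Npr1+/- held more or less mRNA of these genes than that of littermates labelled Npr1+/+, with cage and body weight held as covariates as in the study's methods. None of the 33 genes passed the test, and their 95% confidence intervals reached from -1.03 (Slc25a1) to 0.84 (Mpc1) on the log2 scale. Of all 14331 genes, 0 passed (0%) at an adjusted p under 0.05 in the quasi-likelihood test of edgeR after Benjamini-Hochberg correction, and 151 (1.05%) had an unadjusted p under 0.05, among them 0 of the 33. Estimated differences were small: 29 of the 33 log2 fold changes lay below 0, against 51.6% of all genes, and their median was -0.09, against -0.01 over all genes. In bulk muscle, fewer cells of a type and less RNA per cell cannot be told apart. The ranges of the 2 groups overlapped for all 33 genes, and they did not overlap for 0.00698% of all genes. The count of 29 rested in part on covariates and libraries: it was 21 with the genotype label alone (47.8% of all genes), 23 with cage alone (51.3%), and 18 without the 5 libraries with a length slope over 0.15 in size (48.2%). The median moved to -0.02 without these 5 libraries, to -0.06 without het6 or het10, and to -0.16 with a replicate block instead of cage. Within cages 18, 18, 21 and 29 of the 33 genes were lower in the mice labelled Npr1+/-, against 50.5%, 54.8%, 48.7% and 55.3% of all genes, and the 29 came from the cage with 4 mice labelled Npr1+/- and 1 labelled Npr1+/+.

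**Figure D2:**
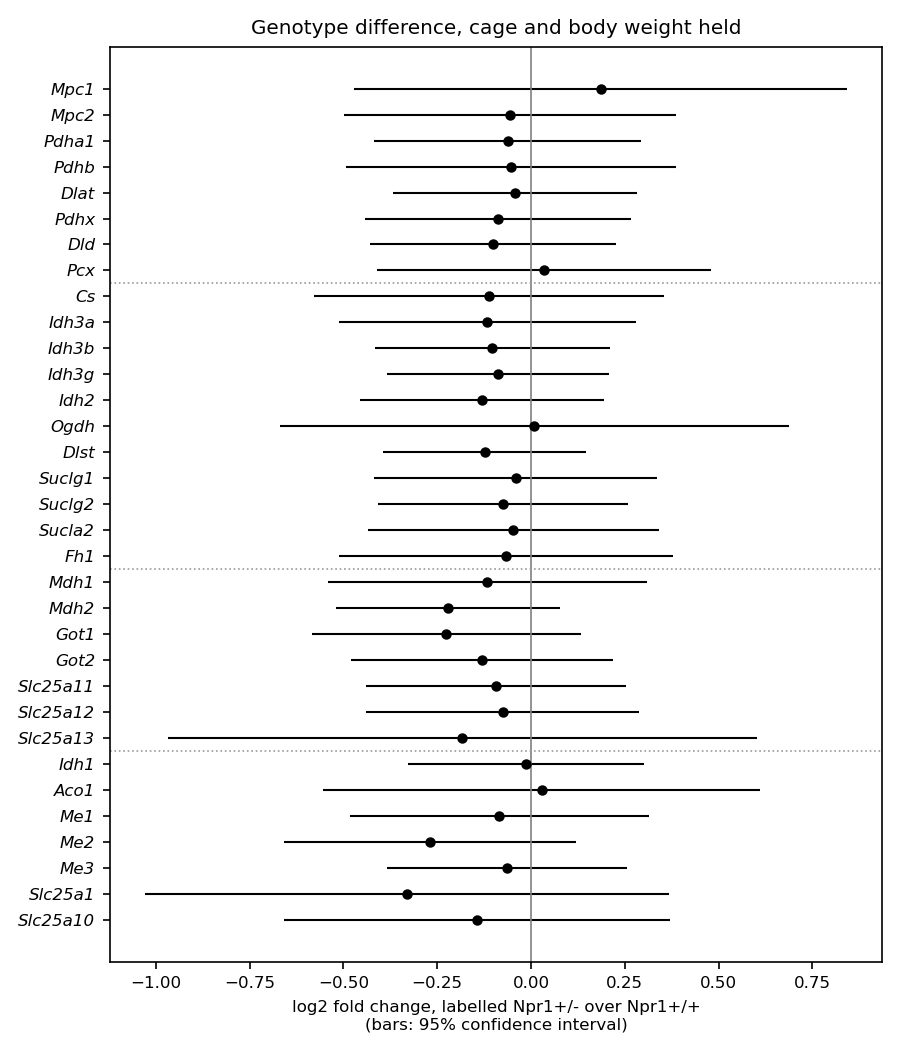
Log2 fold change of each gene between mice labelled Npr1+/- (n = 10) and Npr1+/+ (n = 6), with cage and body weight held; points are estimates and bars are 95% confidence intervals. Most points lie below 0, and every interval crosses 0.

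In the shuttle, all 7 estimates lay below 0, with a median of -0.13 on the log2 scale. Mdh2 ranged from 1089 to 1461 CPM (median 1318) in the mice labelled Npr1+/- and from 1109 to 1619 CPM (median 1504) in the others. Its log2 fold change of -0.22 (standard error 0.14) had the smallest p-value of the 33 genes, 0.134 before and 0.99999 after adjustment by edgeR's test, and 4 of the 6 mice labelled Npr1+/+ lay above all 10 labelled Npr1+/-. Cytosolic Mdh1 ranged from 717 to 1778 CPM (median 1110) and from 1078 to 1486 CPM (median 1228), with both ends of the whole range, het7 and het9, in the group labelled Npr1+/-. Got1, the cytosolic aspartate aminotransferase, ranged from 245 to 575 CPM (median 420) and from 333 to 491 CPM (median 436). Its log2 fold change was -0.23 (standard error 0.17), with an interval from -0.58 to 0.13, and it was 0.01 without the covariates and -0.13 without het9 or wt5. The range of the group labelled Npr1+/- enclosed that of the other group. Slc25a13 was near the detection limit, at 0.437 to 1.32 CPM (median 0.632) and 0.407 to 0.997 CPM (median 0.605). Got2, Slc25a11 and Slc25a12 had estimates between -0.13 and -0.08.

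Among the genes of pyruvate entry, 6 of 8 estimates lay below 0, with a median of -0.06. Mpc1 had the highest estimate of all 33 genes, 0.19 (standard error 0.31), with an interval from -0.47 to 0.84. It ranged from 144 to 690 CPM (median 272) in the mice labelled Npr1+/- and from 263 to 430 CPM (median 273) in those labelled Npr1+/+, so the medians nearly coincided. Without het9, which held 690 CPM, the estimate was -0.05. A processed pseudogene, Mpc1-ps, held 22204 counts beside 108033 for Mpc1, or 16.8 to 25.2% of the count of Mpc1 in each mouse, and the split of reads between them is uncertain. With the reads of both added together, the estimate was 0.17. Pcx, pyruvate carboxylase, ranged from 37.2 to 93.6 CPM (median 55.6) and from 28.2 to 73.0 CPM (median 44.2), and its estimate was 0.03 (standard error 0.21), or -0.24 without the 5 libraries. Its lowest value was in wt1 and its highest in het7. Pdha1, the catalytic subunit of pyruvate dehydrogenase, ranged from 518 to 1013 CPM (median 812) and from 754 to 1074 CPM (median 833). Mpc2, Pdha1, Pdhb, Dlat, Pdhx and Dld, the last of them the dehydrogenase shared with the oxoglutarate complex, had estimates from -0.10 to -0.04.

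In the cycle, 10 of 11 estimates lay below 0, with a median of -0.09 and a range from -0.13 (Idh2) to 0.01 (Ogdh). Cs, citrate synthase, ranged from 464 to 1378 CPM (median 931) in the mice labelled Npr1+/- and from 516 to 1037 CPM (median 779) in those labelled Npr1+/+. Its estimate was -0.11 (standard error 0.22) with the covariates, 0.23 without them, and -0.26 with them but without the 5 libraries with length slopes. Sucla2 ranged from 664 to 1377 CPM (median 988) and from 871 to 1203 CPM (median 1074). Suclg2 ranged from 55.6 to 94.3 CPM (median 71.1) and from 69.5 to 96.8 CPM (median 75.6). For both ligase subunits the lowest mice were labelled Npr1+/-. Idh3a, Idh3b, Idh3g, Dlst, Suclg1 and Fh1 had estimates between -0.12 and -0.04.

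Of the genes that handle citrate and malate outside the cycle, 6 of 7 estimates lay below 0, with a median of -0.08. Me2 ranged from 3.04 to 4.94 CPM (median 3.53) in the mice labelled Npr1+/- and from 3.74 to 5.82 CPM (median 4.01) in the others. Its estimate was -0.27 (standard error 0.18, p = 0.162 before and 0.99999 after adjustment by edgeR's test), and -0.17 without wt6. Aco1, the cytosolic aconitase that also binds iron-responsive RNA elements, ranged from 7.59 to 30.6 CPM (median 15.9) and from 13.7 to 21.7 CPM (median 14.9), with an estimate of 0.03 (standard error 0.28). The lowest and the highest value of Aco1 were both in the group labelled Npr1+/-. Slc25a1 had the lowest estimate of the 33 genes, -0.33 (standard error 0.33). It held 10.96 CPM in het10 and 9.40 CPM in wt4, against 2.30 to 5.49 CPM in the other 14 mice, and its estimate was 0.40 without wt4 and -0.77 without the 5 libraries with length slopes. Slc25a10 was highest in the same 2 mice, at 13.9 and 12.2 CPM against 5.78 to 9.42 CPM. The summed level of 6 adipocyte markers, all of them detected, was also highest in these mice, at 431 CPM in het10 and 349 CPM in wt4 against 34.3 to 193 CPM in the others, and its part in the levels of the 2 carriers was not tested.

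Across single mice, regardless of genotype, a few genes of the pathway moved far and in opposite directions. Ogdh, the decarboxylase that gates the oxoglutarate step of the cycle, had the widest range of the 33 genes, with the highest mouse at 6.54 times the lowest. It held 1511 CPM in het7, 1349 CPM in het6 and 1241 CPM in het5, and 231 CPM in wt1, 282 CPM in het8 and 334 CPM in het9. Cs showed the same 3 mice at the top, at 1378, 1276 and 1198 CPM, and the same 3 at the bottom, at 464 to 516 CPM. Pcx was highest in het7 and het6, at 93.6 and 90.3 CPM, and lowest in wt1, het8 and het9, at 28.2, 37.2 and 38.6 CPM. Mpc1 went the other way, at 144, 152 and 192 CPM in het7, het6 and het5 and at 690 and 430 CPM in het9 and wt1. Pdhb, a subunit of pyruvate dehydrogenase, held 349, 362 and 403 CPM in het7, het6 and het5 and 883, 802 and 656 CPM in wt1, het9 and het8, with Pdhx, Suclg1, Fh1 and Mdh1 also lowest in het7 and het6. The 3 mice with the most Ogdh thus had the least Mpc1, and the 3 mice with the least Ogdh each had more Mpc1 than the median of either group.

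**Figure D3:**
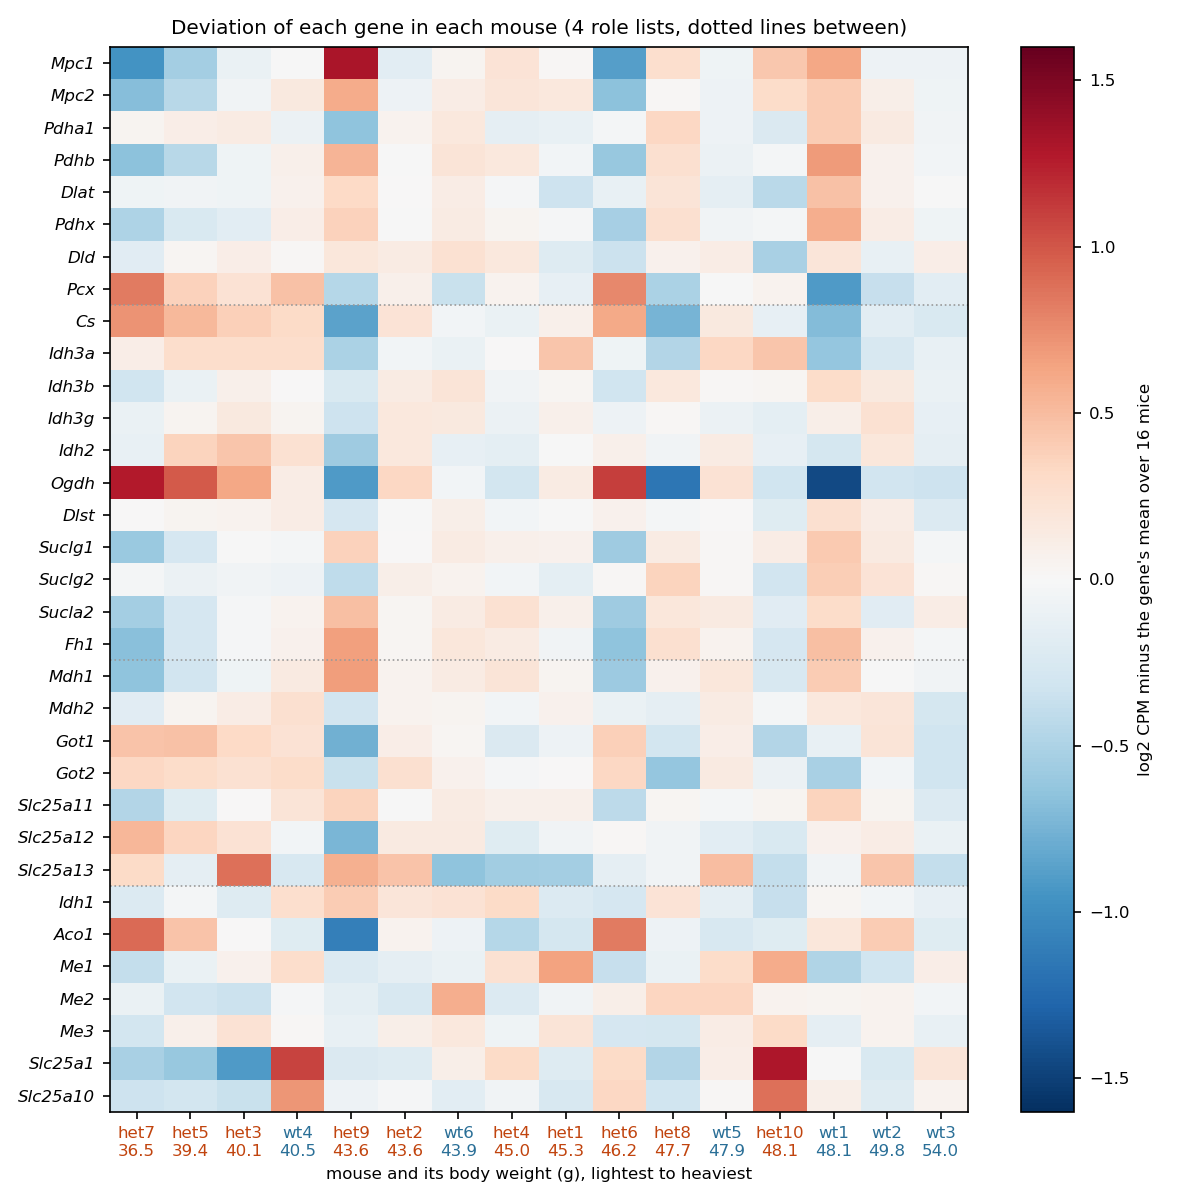
Deviation of each gene's log2 CPM from its mean over the 16 mice, with genes in rows by role list and mice in columns from the lightest to the heaviest (orange names, labelled Npr1+/-; blue names, Npr1+/+). Red is above the mean and blue below; Ogdh, Cs and Pcx are red and Mpc1, Pdhb and Mdh1 blue in het7, het5 and het6, and the reverse holds in het9 and wt1.

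This division did not follow the cycle as a unit. Dlst, the second component of the same oxoglutarate complex as Ogdh, ranged only from 387 to 555 CPM, and Dld from 300 to 508 CPM. The SD of log2 CPM over the 16 mice was 0.77 for Ogdh, 0.13 for Dlst and 0.21 for Dld, against a median of 0.29 over the 33 genes and 0.38 over all genes. The subunits of NAD-dependent isocitrate dehydrogenase also differed, with an SD of 0.34 for the catalytic Idh3a and of 0.18 and 0.15 for the regulatory Idh3b and Idh3g. The length slopes of the libraries went with the division in part, being high in het7, het6 and het5 and low in het9 and wt1 (-0.12). Het10 (-0.18) and het1 (-0.12) had slopes as low at 502 and 690 CPM of Ogdh, and het8, at 282 CPM, had a slope of -0.06. The slope on GC content was highest in het6 (0.25) and lowest in het8 (-0.22), with 0.08 in het7, 0.0024 in het5, -0.15 in wt1 and -0.11 in het9. After offsets for gene length and GC content the SD was 0.65 for Ogdh, 0.38 for Cs (0.47 before), 0.33 for Pcx (0.47 before), 0.39 for Mpc1 (0.54 before) and 0.23 for Dlst, which had 0.13 before. With these offsets the SD was lower for 21 of the 33 genes and higher for 12, such as Mpc2 (0.35 before and 0.43 after) and Me3 (0.19 before and 0.47 after). Other cell and fibre markers moved too. The summed level of 9 fast fibre genes, all detected, was highest in het7 and het6, at 152600 and 146080 CPM, and lowest in het8, wt3 and wt1, at 80528, 86586 and 87746 CPM. In het5 and het9 it lay between these, at 121630 and 114360 CPM. The summed level of 5 endothelial markers was 446, 397 and 292 CPM in het7, het6 and het5, against 147 to 253 CPM in the other 13 mice. Erythrocyte markers summed to 88.0, 281 and 153 CPM in het7, het6 and het5, and to 510, 310 and 200 CPM in het9, het8 and wt1. Tendon and matrix markers summed to 809, 1053 and 761 CPM in the first 3 and to 1694, 1284 and 995 CPM in the other 3, and macrophage markers to 15.15, 25.02 and 15.96 CPM and to 30.3, 27.7 and 23.1 CPM. The part of these markers in the result was not tested. The 7 slow fibre genes summed to 117 to 258 CPM in the mice labelled Npr1+/- and to 122 to 227 CPM in those labelled Npr1+/+.

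The second comparison asked how levels varied with body weight, with cage and genotype held. With all 16 mice, 0 of 14331 genes (0%) had an adjusted p under 0.05 in edgeR's quasi-likelihood test. At an unadjusted p under 0.05, 8 of the 33 genes had lower levels in heavier mice and 0 had higher levels, against 12.3% of all genes lower and 4.74% higher. The count of 8 was 5 without het5, wt1 or wt5 (9.52%, 7.08% and 8.41% of all genes lower) and 5 with library size only or body weight alone (6.67% and 11.5%). It was 7 without the 5 libraries with length slopes (4.22%). The 8 genes were Pcx at pyruvate entry, Cs, Idh3a, Idh2 and Ogdh in the cycle, and Got1, Got2 and Slc25a12 in the shuttle. The slope of Ogdh was -0.154 log2 units per g (standard error 0.0438, p = 0.0028 before and 0.245 after adjustment by edgeR's test). Cs had a slope of -0.096 (standard error 0.030) and Got1 one of -0.076 (standard error 0.023) log2 units per g. The 3 smallest p-values among positive slopes belonged to Mpc1, at 0.081 (standard error 0.039), Pdhb, at 0.050 (standard error 0.026), and Pdhx, the protein that tethers Dld to the pyruvate dehydrogenase core, at 0.039 (standard error 0.022). Pdhb ranged from 349 to 802 CPM (median 536) in the mice labelled Npr1+/- and from 514 to 883 CPM (median 582) in those labelled Npr1+/+. Pdhx ranged from 133 to 248 CPM (median 188) and from 183 to 286 CPM (median 208). These slopes were smaller in some settings. Without the 5 libraries with length slopes Ogdh had -0.104, Cs -0.069, Got1 -0.050, Mpc1 0.026, Pdhb 0.022 and Pdhx 0.021 log2 units per g. With body weight as the only term the values were -0.095, -0.058, -0.040, 0.035, 0.030 and 0.024 in the same order. Without het7 Mpc1, Pdhb and Pdhx had 0.053, 0.033 and 0.026, and without het9 Mpc1 had 0.053. With DESeq2 26 genes were called, Ogdh among them (adjusted p = 0.0488), and without the genotype term edgeR called 333, Ogdh among them (adjusted p = 0.0447).

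**Figure D4:**
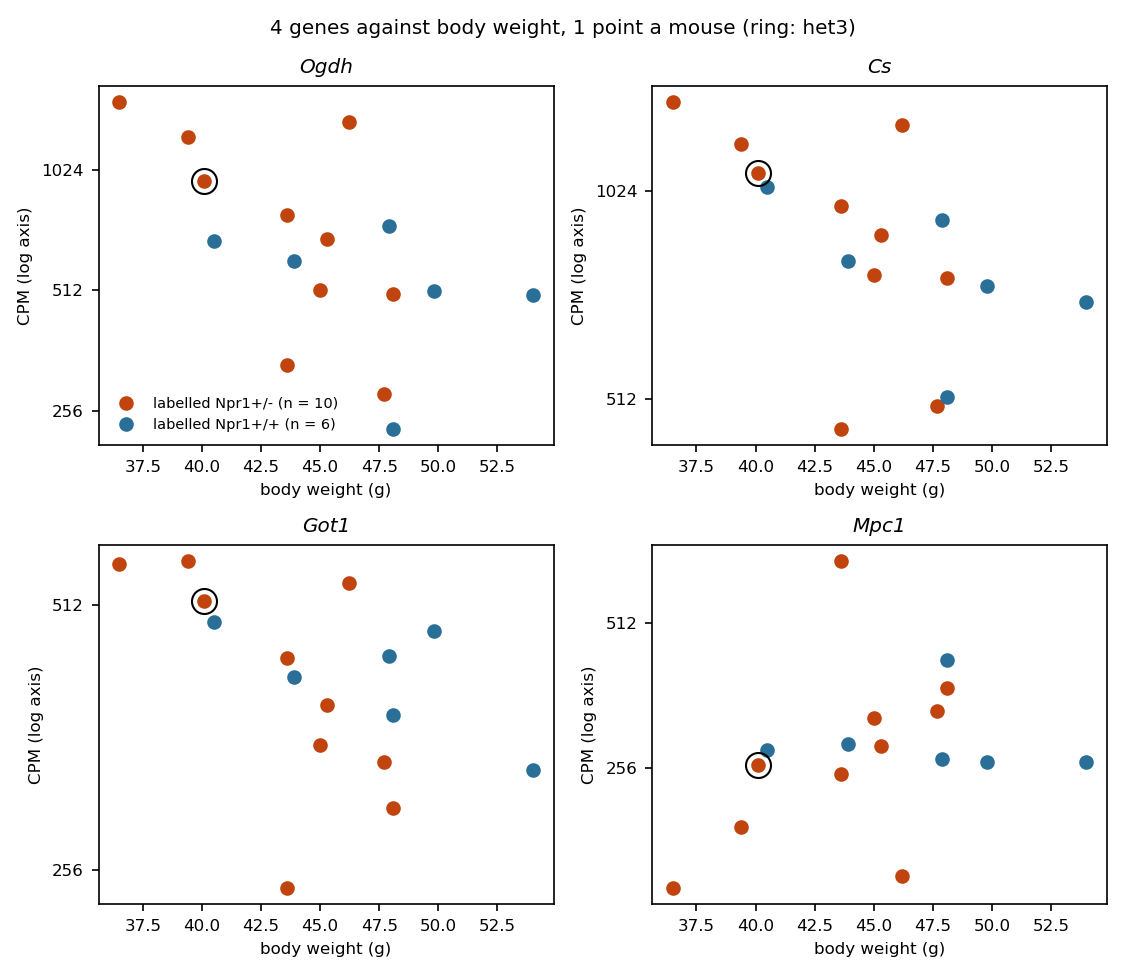
CPM of Ogdh, Cs, Got1 and Mpc1 (log axis) against body weight in g, 1 point a mouse, with mice labelled Npr1+/- in orange and Npr1+/+ in blue and a ring around het3. Lighter mice lie higher for Ogdh, Cs and Got1; het6, at 46.2 g, lies high for these genes, and het9, at 43.6 g, lies low.

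One mouse decided how many of these slopes passed. Het3 weighed 40.1 g in a cage whose other 3 mice weighed 46.2 to 54 g. Without it, 3158 of 14284 genes passed at an adjusted p under 0.05 in edgeR's test, 1953 of them (13.7%) with lower and 1205 (8.44%) with higher levels in heavier mice. Among the 33 genes, 14 passed. Those that fell with weight were Pcx, Cs, Ogdh, Got1, Got2 and Aco1, and those that rose were Mpc1, Mpc2, Pdhb, Pdhx, Suclg1, Sucla2, Fh1 and Mdh1. Ogdh fell by 0.208 log2 units per g (standard error 0.0426, adjusted p = 0.0063), Cs by 0.126 (standard error 0.031, adjusted p = 0.014) and Pcx by 0.118 (standard error 0.028, adjusted p = 0.012). Mpc1 rose by 0.151 log2 units per g (standard error 0.039, adjusted p = 0.016), or by 0.149 with the reads of Mpc1-ps added. Both subunits of the pyruvate carrier thus rose with weight in these 15 mice without offsets, and both aspartate aminotransferases fell. Mpc2 and Got2 did not pass with offsets for length and GC content. With offsets for gene length 12 of the 33 passed (20.3% of all genes), and with offsets for length and GC content 8 did (15.4% of all genes), namely Pcx, Cs, Ogdh, Got1 and Aco1 falling and Mpc1, Pdhb and Suclg1 rising. Leaving out any other single mouse gave 0 calls among the 33 genes. Values of marker genes also went with weight. With all 16 mice 3 of 9 fast fibre, 2 of 5 endothelial, 2 of 5 erythrocyte, 2 of 5 skeletal muscle, 2 of 6 tendon and matrix, 1 of 7 slow fibre, 1 of 4 macrophage, 0 of 6 adipocyte and 0 of 3 Schwann markers had an unadjusted p under 0.05, against the 12.3% of all genes lower and 4.74% higher. Estimated slopes were below 0 for 6 of the 9 fast fibre, 4 of the 5 endothelial and 0 of the 5 erythrocyte markers. Their part in these slopes was not tested. Each of the 16 mice was left out in turn in this way, and the labels set het3 apart only by its weight within its cage.

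**Figure D5:**
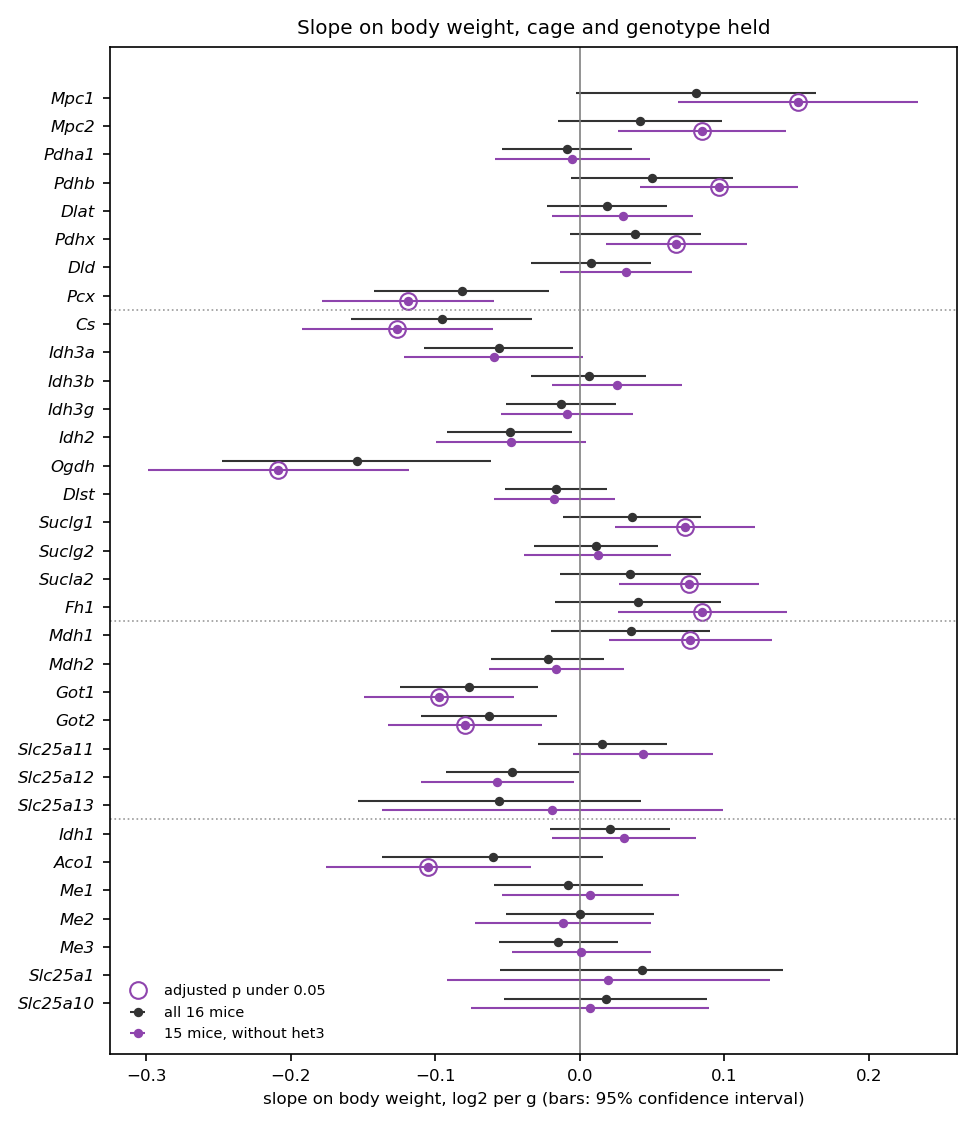
Slope of each gene on body weight in log2 units per g, with cage and genotype held, for all 16 mice (grey) and for the 15 mice without het3 (purple), with 95% confidence intervals and rings where the adjusted p was under 0.05. The slopes keep their sign for the 14 ringed genes and lie farther from 0 without het3.

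The third comparison asked whether cages differed, with genotype and body weight held. Of all genes, 4 (0.0279%) had an adjusted p under 0.05 and 1055 (7.36%) an unadjusted p under 0.05 in edgeR's test, and of the 33 genes 0 had either. The smallest p-values were those of Me1 (0.073), Idh1 (0.080) and Ogdh (0.090), each with an adjusted p of 0.656 to 0.659 by edgeR's test. Me1, the cytosolic malic enzyme that makes NADPH, ranged from 214 to 439 CPM (median 260) in the mice labelled Npr1+/- and from 200 to 344 CPM (median 282) in those labelled Npr1+/+. It was highest in het1 and het10, both of cage 676. Idh1 ranged from 27.1 to 46.7 CPM (median 32.3) and from 31.7 to 42.1 CPM (median 34.9). Without het3, 869 genes passed for cage and still 0 of the 33.

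Other genes of the pathway, outside the 33, were read from the same tests. For genotype, 0 of the 7 kinases and phosphatases of pyruvate dehydrogenase, 0 of the 7 further genes of the cycle and 0 of the 16 tested genes of side routes had an unadjusted p under 0.05. Pdk4, the kinase that restrains pyruvate dehydrogenase when fat is burned, ranged from 915 to 2123 CPM (median 1737) in the mice labelled Npr1+/- and from 1431 to 2733 CPM (median 1847) in those labelled Npr1+/+. For body weight, 2, 1 and 4 genes of these lists had an unadjusted p under 0.05, all with lower levels in heavier mice, against the 12.3% of all genes lower and 4.74% higher. They were Pdk2 and Pdp2, then Sdha, then Gpd2, Acss1, Gpt and Slc25a22. Sdha, the catalytic subunit of succinate dehydrogenase, had a slope of -0.104 log2 units per g (standard error 0.031) and ranged from 376 to 1375 CPM, whereas its partner Sdhb had a slope of 0.018 (standard error 0.023). Gpd2, the mitochondrial enzyme of the glycerol phosphate shuttle, had a slope of -0.094 (standard error 0.030). Slc25a18 was not tested, at 0 to 0.238 CPM.

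Some of the 33 genes lie over genes on the opposite strand, and whether the counting used strand was not stated. The count of Rnf167 itself equalled 10.8% of that of Slc25a11 beside it, that of Lrfn4 6.12% of that of Pcx and that of Nop56 3.71% of that of Idh3b. These shares do not measure reads given to the wrong gene, and the effect on the levels of these 3 genes was not tested. The level of Mpc1 is uncertain beside its pseudogene.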

How the data were processed

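Skeletal muscle RNA of 16 mice was sequenced as paired-end reads. The study's methods name TruSeq Stranded mRNA libraries, whereas the labels name a Universal Plus kit of Tecan. The authors aligned reads to GRCm38 with STAR 2.7.2b and counted fragments per GENCODE M24 gene with featureCounts (1.6.4 in the submitters' processing notes) where both ends aligned. They deposited raw counts per gene with no normalization, and a gene length that was used for levels per kb and for the length offsets.

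From these counts, genes were kept with filterByExpr by genotype, scaled with TMM and tested with edgeR 4.0.16 (glmQLFit, robust = TRUE, legacy = TRUE; R 4.3.3) on genotype, cage and body weight together, with Benjamini-Hochberg adjustment over all 14331 genes and a threshold of 0.05. Symbols came from GENCODE M21 (55144 genes with a symbol). Log2 CPM values used a prior count of 2. Paralog ratios were tested by exact permutation. The tests were tried on simulated data. The 33 genes and all lists were chosen with earlier results of these data known. Genes given with values for single mice or groups are the 3 with the smallest p in each direction for genotype and for body weight, the 3 for cage, and the highest and lowest gene of each role list. Others were added after their values were seen, among them the ones in the account of single mice, Slc25a1, Slc25a10 and the pathway genes outside the 33.

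Alternatives were RLE size factors, library size only, no or a stricter filter (10 counts in every mouse), DESeq2 1.42.0 and limma-voom (limma 3.58.1). Others were offsets for gene length, fits with fewer covariates, a block for the replicate number and leaving out each mouse. Offsets for GC content, alone or with length, and the block with the length offset were added after seeing the data. So were the offsets in the fit without het3, principal transcript lengths, the reads of Mpc1-ps and leaving out 5 libraries. Library totals ranged from 15273472 to 59682677 counts. The standard errors and intervals of edgeR's fit include the spread between mice as well as counting error. Each library is 1 mouse by its labels. No library was identical to another.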

Additional observations from a re-analysis of the deposited data

Results flagged for a closer look

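In 66 groups looked at (33 genes in each genotype group), 5 held a mouse set apart from the others of its group by more than Dixon's 95% critical value, where chance gives about 1 in 20 groups, or 3.3. All 5 lay among the mice labelled Npr1+/+. The mouse wt1 was the highest for Mpc1, at 8.75 on the log2 CPM scale, and for Pdhx, at 8.16, and the lowest for Ogdh, at 7.85. The mouse wt4 was the highest for Slc25a1, at 3.25, and for Slc25a10, at 3.62. The values of adipocyte markers in wt4 stand beside the carriers in the results above.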

How the results depend on the processing

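The labels share replicate numbers across the genotypes, but same-numbered mice deviated together only weakly, with a mean correlation across genes of 0.078 (6 pairs, 0.033 to 0.170). Other pairs had a mean of -0.008 (54 pairs, -0.415 to 0.514). With 6 pairs, these values cannot settle whether the numbers pair the mice. A fit with the replicate block in place of cage called 2 genes for genotype and 0 of the 33, with Mpc1 at -0.35 and Cs at 0.28, and with the length offset as well it called 4 genes, with a median of the 33 genes at -0.18, Mpc1 at -0.26, Got1 at 0.039 and Cs at 0.18.

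For genotype, 8 of all genes were called with no filter, 6 with DESeq2, 2 without the 5 libraries with length slopes, and 0 to 3 when a mouse was left out. None of these settings called any of the 33. Other scalings (RLE, library size only) left 28 and 30 of the 33 estimates below 0, and leaving out a mouse left 25 to 31. Some estimates changed sign. With the genotype label alone Got1 was 0.0076 and Cs 0.23, with cage alone Mpc1 was -0.15, Got1 0.058 and Cs 0.24, and with body weight alone Aco1 was -0.018. Without the 5 libraries Pcx was -0.24 and Aco1 -6.0e-05, while Mpc1 (0.16), Mdh2 (-0.18), Me2 (-0.25), Got1 (-0.23), Cs (-0.26) and Slc25a1 (-0.77) kept their sign. Leaving out single mice gave ranges of -0.054 to 0.31 for Mpc1, -0.10 to 0.16 for Pcx, -0.12 to 0.17 for Aco1, -0.55 to 0.40 for Slc25a1, -0.22 to 0.03 for Cs, -0.35 to -0.17 for Me2, -0.29 to -0.13 for Got1 and -0.25 to -0.15 for Mdh2.

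For body weight, 26 genes were called with DESeq2 and 333 without genotype, Ogdh the 1 of the 33 in both, and 0 to 3158 genes and 0 to 14 of the 33 when a mouse was left out, both upper values without het3. For cage, counts were 0 with library size only, 23 with no filter, 1 with at least 10 counts in every mouse, 86 with DESeq2, 1 with limma-voom, 9 with length, 7 with GC and 10 with both offsets, 1 without the 5 libraries, and 0 to 869 when a mouse was left out, with 0 of the 33 in each. The cause of these shifts was not tested. Counts were low for Slc25a13 (6 to 37 a mouse), Slc25a1 (47 to 174) and Me2 (51 to 189), which limits their precision.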
